A study of Mus musculus with 3 samples.

Results

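The 8 genes described here belong to Hedgehog and PTHrP signalling. They are *Ihh*, *Ptch1*, *Smo*, *Gli1*, *Gli2*, *Gli3*, *Hhip* and *Pthlh*, found by symbol among the 31053 genes of the count files and followed in stromal cells of ectopic masses. All 8 had a row in the files. In the growth plate, prehypertrophic chondrocytes make Indian hedgehog, which binds Patched 1 and so releases Smoothened to act on the GLI transcription factors. PTHrP, the product of *Pthlh*, acts through its receptor on nearby chondrocytes and holds them in a proliferating, immature state. *Ptch1*, *Gli1* and *Hhip* are themselves transcribed in response to Hedgehog in many tissues, so their levels are commonly read as a sign of pathway activity.

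The masses came from female CD-1 mice, 6 to 8 weeks old, that carried subcutaneous implants of Matrigel, a basement membrane gel, and cells were released on day 5 with dispase. Matrigel-only implants held no rhBMP2 and their mice were dosed with nothing. Vehicle implants held rhBMP2, the human bone morphogenetic protein used to start ectopic cartilage and bone, and their mice were given corn oil and DMSO by mouth. Palo implants held rhBMP2 too, and their mice were given the retinoid agonist palovarotene at 4 mg/kg by mouth. Each condition was 1 droplet library, so the spread between mice is unknown and differences between libraries are given without a test.

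The libraries held 44252421 to 46901673 unique molecular identifiers (UMIs) on 6065 to 9249 barcodes. A cell was called stromal when *Col1a1*, *Col1a2*, *Col3a1*, *Dcn* and *Lum* together gave at least 1% of its UMIs. This left 2085 Matrigel-only, 1373 Vehicle and 1184 Palo cells, with median depths of 9082, 17114 and 12955 UMIs. Cells within a factor of 2 of that cut numbered 94, 151 and 18. The pairs of libraries shared 11 to 21 barcodes, of which at most 1 was a stromal cell in both. Of 16 chondrocyte genes above the limit of 1 CPM set below, 16 were more than 2-fold higher in Vehicle than in Matrigel-only. Of all genes above that limit, 5.06% were. *Acan* was seen in 779 of the 1373 Vehicle cells against 1 Matrigel-only and 4 Palo cells.

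Levels are given in CPM, the UMIs of a gene summed over the cells and scaled to 1000000 UMIs of those cells, with exact Poisson 95% intervals. Ratios carry conditional binomial 95% intervals. Both cover counting error only and not the spread between mice. A gene was read as past 2-fold when the ratio of levels with 1 CPM added was at least 2 or at most a factor of 2 below 1, among the 12745 genes with a mean of at least 1 CPM over the libraries. Macrophage-like cells, non-stromal cells with at least 1% of UMIs in 12 macrophage genes, served as the background for genes that stromal cells express. Their median depths were 2992 to 4198 UMIs. For shares of cells with a UMI, each cell was thinned to 3100 UMIs.

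Between Vehicle and Matrigel-only stromal cells, 1 of the 8 genes was past 2-fold higher, *Ptch1*, where 5.06% of all genes counted were. *Gli2* and *Pthlh* were past 2-fold lower, where 9.98% of all genes were. *Smo* and *Gli3* lay within 2-fold, and *Ihh*, *Gli1* and *Hhip* had means under 1 CPM and were not counted. In Palo over Vehicle the same members differed the other way, *Gli2* and *Pthlh* past 2-fold higher beside a background of 6.88% and *Ptch1* past 2-fold lower beside 5.17%. Those comparisons share the Vehicle library. The *Gli2* difference in Palo over Vehicle, a log2 ratio of 1.54 with 1 CPM added, was 0.96 with the mean of each cell's CPM and 0.77 with 5 CPM added, both short of 2-fold. Against Vehicle cells without an *Acan* UMI it was 0.82. Among cells with a *Pi16* UMI, described below, the *Gli2* differences had the other sign. They rest on 37, 14 and 17 UMIs in Matrigel-only, Vehicle and Palo, with level intervals that overlapped. In Palo over Matrigel-only, none of the 5 members counted was past 2-fold, beside 0.792% of genes higher and 2.09% lower.

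**Figure D1:**
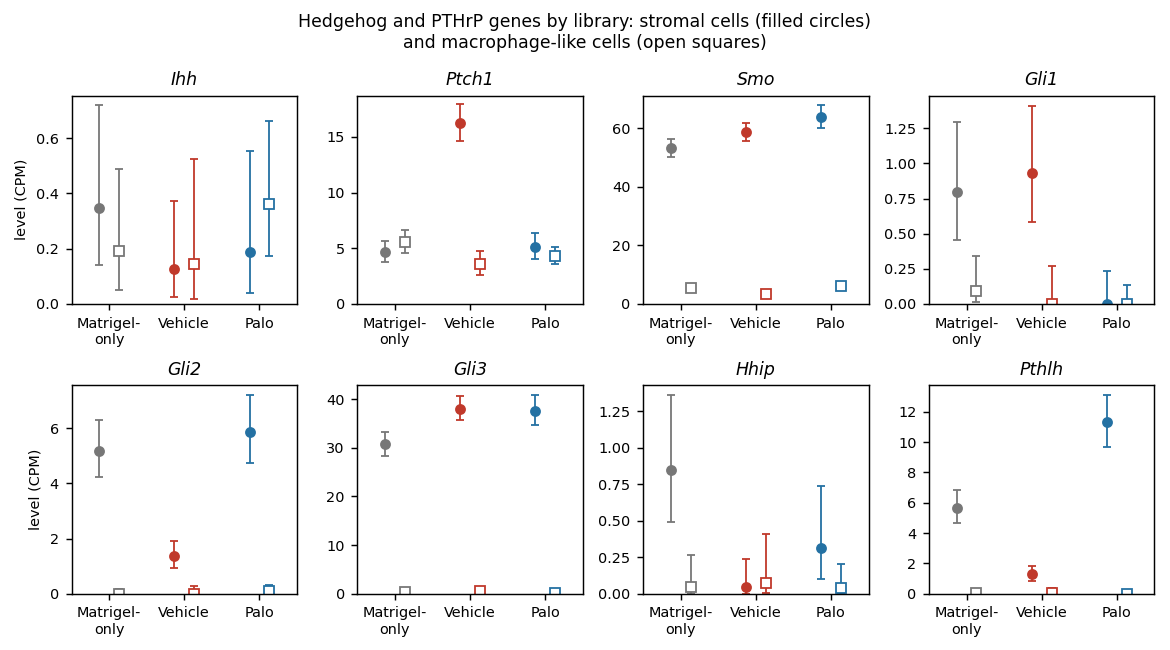
Level in CPM (vertical axes, each from 0) of the 8 genes in the Matrigel-only, Vehicle and Palo libraries, in stromal cells (filled circles) and macrophage-like cells (open squares), with exact Poisson 95% intervals. *Ptch1* stood at 16.2 CPM in Vehicle stromal cells and at 4.64 and 5.12 CPM in the others, while *Gli2* and *Pthlh* were lowest in Vehicle.

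The Hedgehog ligands were close to undetected. *Ihh*, the ligand of cartilage (mm10, chromosome 1, 74945315 to 74951672, minus strand), had 7, 3 and 3 UMIs in the Matrigel-only, Vehicle and Palo stromal cells, never more than 1 in a cell. Its levels were 0.349, 0.127 and 0.19 CPM. Macrophage-like cells had 0.191, 0.146 and 0.361 CPM of it, and the intervals of the classes overlapped in each library. *Shh* had no UMI in the stromal cells of any library, which with 3 UMIs as the limit that a count of 0 allows means at most 0.15, 0.127 and 0.19 CPM. *Dhh*, the desert hedgehog gene, stood at 0.299, 0.17 and 0.126 CPM. Within Vehicle, the cells with *Acan* had 1 *Ihh* UMI and those without it had 2. At this depth a source of Hedgehog ligand among the stromal cells was not detectable.

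*Ptch1* encodes the Hedgehog receptor that represses Smoothened in the absence of ligand (mm10, chromosome 13, 63508328 to 63573598, minus strand). Its level was 4.64 CPM in Matrigel-only (95% interval 3.74 to 5.68, 93 UMIs), 16.2 CPM in Vehicle (14.7 to 17.9, 383 UMIs) and 5.12 CPM in Palo (4.06 to 6.36, 81 UMIs). Vehicle was the high library, and its interval did not overlap either of the others. The ratio of Vehicle to Matrigel-only was 3.50, a log2 ratio of 1.81 (1.48 to 2.15), and the log2 ratio of Palo to Vehicle was -1.67 (-2.03 to -1.32). Palo over Matrigel-only was 1.10, with a log2 interval from -0.31 to 0.59 that includes no change.

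The *Ptch1* UMIs were spread over many cells. In Vehicle 280 cells had at least 1, of which 211 had exactly 1 and 6 had more than 3, with a maximum of 5. After thinning, the share of cells with a *Ptch1* UMI was 4.67% in Vehicle (3.59 to 5.96), 1.56% in Matrigel-only and 1.58% in Palo. Macrophage-like cells gave 1.14%, 1.61% and 1.31% in Vehicle, Matrigel-only and Palo. The stromal share was therefore above the background in Vehicle, and was not distinguishable from it in Matrigel-only and Palo. The remaining non-stromal cells, outside both classes, had *Ptch1* at 18.8 CPM in Vehicle (14.1 to 24.6), 22.2 CPM in Matrigel-only and 12.1 CPM in Palo, and what these cells are was not tested.

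The promoter of *Ptch1* is shown because *Ptch1* was the 1 member past 2-fold higher in Vehicle. The table of RefSeq promoters used here, on GRCm38.p6, matched 7 of the 8 members, all but *Gli1*, and gives 250 bases before to 50 after a transcription start. The sequence lies at chr13:63565686-63565985 on the minus strand, inside the span of the gene, and is written 5′ to 3′. Capitals mark GGCGCC, a GC-rich element that BMP-activated SMAD proteins are known to bind.

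Ptch1: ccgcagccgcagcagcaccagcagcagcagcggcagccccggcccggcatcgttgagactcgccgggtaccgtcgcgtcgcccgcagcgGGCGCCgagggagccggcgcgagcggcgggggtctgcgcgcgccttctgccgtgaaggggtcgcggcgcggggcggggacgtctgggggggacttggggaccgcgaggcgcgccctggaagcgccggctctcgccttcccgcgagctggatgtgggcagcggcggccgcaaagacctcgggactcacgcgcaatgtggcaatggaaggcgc

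That element, searched on both strands, occurred once in the *Ptch1* promoter and in 11.9% of 32851 promoters of the same length. GACCACCCA, the sequence GLI proteins prefer, occurred in 0.253% of all promoters and in 0 of the 7 member promoters. ACAATG, a SOX element, and AGGTCA, the hexamer that retinoic acid response elements repeat, were also in 0 of the 7 and in 12.6% and 16.3% of all promoters. A match here describes letters in a window and is not a measured site.

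*Smo*, the transmembrane protein that Patched restrains, hardly differed between libraries. It stood at 53.3 CPM in Matrigel-only (50.1 to 56.6), 58.7 CPM in Vehicle (55.7 to 61.9) and 63.9 CPM in Palo (60.0 to 68.0). The log2 ratio of Vehicle to Matrigel-only was 0.14 (0.02 to 0.26). The thinned share of cells with a *Smo* UMI was 14.8%, 16.9% and 18.2%, against 1.10% of Vehicle macrophage-like cells. *Smo* was thus a transcript of stromal cells in all of the libraries, the 2 groups with low *Ptch1* included.

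*Hhip*, a membrane protein that binds and sequesters Hedgehog ligands, had 17 UMIs in Matrigel-only (0.848 CPM, 0.494 to 1.36), 1 UMI in Vehicle (0.0424 CPM) and 5 in Palo (0.316 CPM). The 1 Vehicle UMI and the 17 of Matrigel-only give a log2 ratio of -4.32, with a wide counting interval from -9.71 to -1.65. The Vehicle level was no higher than the 0.0729 CPM of its macrophage-like cells.

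The GLI factors differed from each other. *Gli1*, the activator whose transcription is itself a response to Hedgehog, had 16 UMIs in Matrigel-only stromal cells, 22 in those of Vehicle and 0 in those of Palo. These are 0.798 CPM (0.456 to 1.30) and 0.933 CPM (0.584 to 1.41). For the count of 0 in Palo, the limit of 3 UMIs is 0.19 CPM, while the exact Poisson 95% interval reaches 0.233 CPM. Measured against 3 UMIs over the Palo cells, the point levels of Vehicle and Matrigel-only were 4.92-fold and 4.21-fold higher. With counting error in both libraries, the 95% interval of the log2 ratio reached up to -1.88 for Palo over Vehicle and -1.61 for Palo over Matrigel-only. In Vehicle 1 cell held 4 of the 22 UMIs. *Gli1* overlaps *Arhgap9*, a gene on the opposite strand that the files also count.

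*Gli2*, the main activator of the early Hedgehog response, was lowest in Vehicle. Its level was 5.19 CPM in Matrigel-only (4.24 to 6.29, 104 UMIs), 1.36 CPM in Vehicle (0.928 to 1.92, 32 UMIs) and 5.87 CPM in Palo (4.74 to 7.20, 93 UMIs). The Vehicle interval did not overlap the others. The log2 ratio was -1.94 (-2.56 to -1.35) for Vehicle over Matrigel-only and 2.12 (1.52 to 2.74) for Palo over Vehicle. Few cells carried it, 96, 28 and 86 cells, with at most 2 UMIs each. Macrophage-like cells had 0, 0 and 3 UMIs of *Gli2*. With 1 CPM added, the *Gli2* log2 ratio of Vehicle over Matrigel-only was -1.39. It fell short of 2-fold at -0.75 with the mean of each cell's CPM and -0.68 with 5 CPM added. With only the Vehicle cells that had no *Acan* UMI it was -0.67. Among cells with a *Pi16* UMI, described below, Vehicle was not the lowest, at 5.65 CPM against 3.76 CPM in Matrigel-only and 4.10 CPM in Palo, with overlapping intervals.

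*Gli3*, which is processed into a repressor where Hedgehog is absent, was close to level. It stood at 30.8 CPM in Matrigel-only (28.4 to 33.3), 38.1 CPM in Vehicle (35.6 to 40.6) and 37.6 CPM in Palo (34.7 to 40.8). Its log2 ratio was 0.31 (0.16 to 0.46) for Vehicle over Matrigel-only and -0.02 (-0.17 to 0.14) for Palo over Vehicle. Thinned shares were 8.84%, 11.05% and 11.04%, against 0.142% of Vehicle macrophage-like cells.

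*Pthlh*, the gene of PTHrP (mm10, chromosome 6, 147252101 to 147264183, minus strand), was also lowest in Vehicle and was highest in Palo. Its level was 5.69 CPM in Matrigel-only (4.69 to 6.83, 114 UMIs), 1.27 CPM in Vehicle (0.858 to 1.81, 30 UMIs) and 11.3 CPM in Palo (9.71 to 13.1, 179 UMIs). No interval overlapped another. The log2 ratio was -2.16 (-2.79 to -1.57) for Vehicle over Matrigel-only and 3.15 (2.59 to 3.76) for Palo over Vehicle. For Palo over Matrigel-only it was 0.99 (0.64 to 1.34), which with 1 CPM added is 0.88 and within 2-fold.

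Palo cells with *Pthlh* numbered 111, of which 83 had 1 UMI and 6 had more than 3. The top cells held 18 and 14 UMIs. Without the 2 top cells of each library, a choice made after seeing the values, the levels were 5.45 CPM in Matrigel-only, 1.06 CPM in Vehicle and 9.31 CPM in Palo. The order of the libraries was the same. The macrophage-like cells held 1, 1 and 0 UMIs of *Pthlh*.

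The *Pthlh* promoter is shown beside that of *Ptch1* because their levels differed in opposite directions while both hold a single GGCGCC, again in capitals. It lies at chr6:147263964-147264263 on the minus strand in GRCm38.p6.

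Pthlh: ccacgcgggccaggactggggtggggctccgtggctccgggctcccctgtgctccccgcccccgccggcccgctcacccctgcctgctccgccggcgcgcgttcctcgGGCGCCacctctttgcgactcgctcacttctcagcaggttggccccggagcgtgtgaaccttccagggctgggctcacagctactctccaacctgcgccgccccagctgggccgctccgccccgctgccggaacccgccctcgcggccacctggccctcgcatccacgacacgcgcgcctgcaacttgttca

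*Pth1r*, the receptor that PTHrP shares with parathyroid hormone, differed in the reverse direction to its ligand gene. It stood at 41.2 CPM in Matrigel-only (38.4 to 44.1), 210.8 CPM in Vehicle (205 to 217) and 43.3 CPM in Palo (40.1 to 46.6). That is 5.12-fold higher in Vehicle than in Matrigel-only. The thinned share of cells with a UMI was 12.2%, 40.02% and 12.7%, and Vehicle macrophage-like cells gave 0.616%. *Pth1r* overlaps *Myl3* on the opposite strand, which the files also count. *Pth*, the hormone gene, had no UMI, and the related receptor gene *Pth2r* had 2 UMIs, both in Palo.

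Other genes of the pathways were taken from lists. Of 27 Hedgehog pathway genes, members included, 20 had a mean of at least 1 CPM, and 2 were past 2-fold higher and 5 lower in Vehicle than in Matrigel-only. Their median log2 ratio with 1 CPM added was -0.40, against -0.05 over all genes counted. The lower genes included *Gli2*, *Gas1*, *Cdon* and *Disp1*. In Palo over Vehicle 3 were higher and 3 lower, and in Palo over Matrigel-only 1 was higher and 1 lower. Over all genes counted, 5.06% were past 2-fold higher and 9.98% lower in Vehicle over Matrigel-only. The shares were 6.88% and 5.17% in Palo over Vehicle, and 0.792% and 2.09% in Palo over Matrigel-only.

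*Gas1*, *Cdon* and *Boc* encode co-receptors that present Hedgehog to Patched. *Gas1* stood at 228.4 CPM in Matrigel-only (222 to 235), 52.9 CPM in Vehicle (50.0 to 55.9) and 203.3 CPM in Palo (196 to 210). It was low in Vehicle alone. *Cdon* was 61.3, 24.3 and 28.6 CPM in the same order, so for this gene the Palo level was near that of Vehicle. *Boc* was 22.1, 11.02 and 21.5 CPM, just within 2-fold with 1 CPM added. *Lrp2*, another Hedgehog co-receptor, had 1 UMI in Matrigel-only and none in the other libraries.

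*Disp1*, which releases Hedgehog from the cells that make it, was 24.6, 9.16 and 18.8 CPM in Matrigel-only, Vehicle and Palo. *Scube1*, a secreted glycoprotein of a family that helps release the ligand, was the other gene higher in Vehicle, at 14.9 CPM against 0.648 CPM in Matrigel-only and 1.14 CPM in Palo. Its relative *Scube2* was 6.70 CPM in Palo against 2.39 CPM in Matrigel-only and 1.70 CPM in Vehicle. *Ulk3*, a kinase that acts on GLI proteins, was 7.43, 14.4 and 4.61 CPM, and its macrophage-like levels were of similar size at 9.63, 8.02 and 4.84 CPM. Inside the cell, *Sufu*, the GLI inhibitor, was within 2-fold in all of the comparisons at 21.1, 15.4 and 17.1 CPM.

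**Figure D2:**
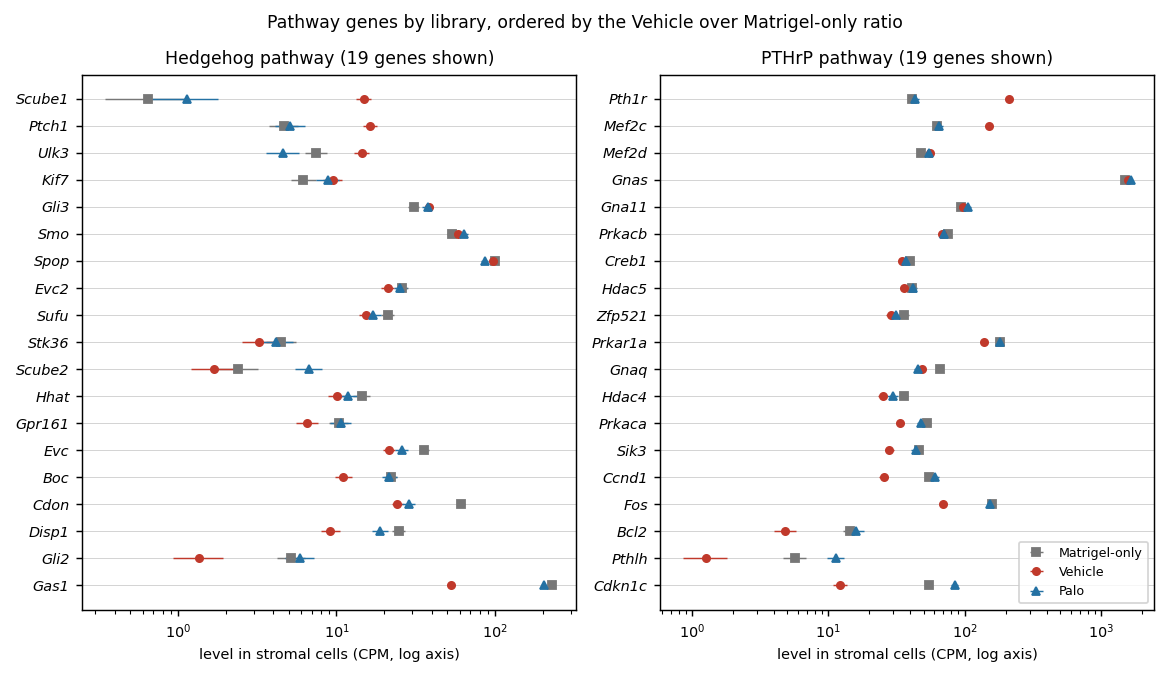
Level in stromal cells (horizontal axis, CPM, log scale) of 19 Hedgehog and 19 PTHrP pathway genes with a mean of at least 1 CPM, in Matrigel-only (grey squares), Vehicle (red circles) and Palo (blue triangles), with exact Poisson 95% intervals, ordered by the ratio of Vehicle to Matrigel-only. Vehicle stood below the other libraries for *Gas1*, in the bottom row on the left, and above them for *Pth1r*, in the top row on the right.

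The primary cilium carries Smoothened when the pathway is on, and its genes were nearly level. Of 24 cilium genes, all counted, 0 were past 2-fold in either direction in each comparison of conditions. Their median log2 ratio was 0.06 in Vehicle over Matrigel-only and -0.10 in Palo over Vehicle. Over all genes counted, 5.06% were higher and 9.98% lower in Vehicle over Matrigel-only, and 6.88% and 5.17% in Palo over Vehicle. In Palo over Matrigel-only the shares were 0.792% and 2.09%, so 0 of 24 is near the share of all genes there. *Ift20*, a subunit of the transport machinery of the cilium, was 224.4, 286.1 and 261.6 CPM.

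Of 22 PTHrP pathway genes, *Pthlh* included, 19 were counted. In Vehicle over Matrigel-only 2 were past 2-fold higher, *Pth1r* and *Mef2c*, and 5 lower, *Pthlh*, *Cdkn1c*, *Bcl2*, *Fos* and *Ccnd1*. Over all genes counted 5.06% were higher and 9.98% lower. The same 7 genes were past 2-fold the other way in Palo over Vehicle, comparisons that share the Vehicle library. Of all genes 6.88% were higher and 5.17% lower there. None was past 2-fold in Palo over Matrigel-only, beside 0.792% of all genes higher and 2.09% lower, so 0 of 19 is near the share of all genes. *Cdkn1c*, a cell cycle inhibitor, was 54.5, 12.1 and 84.6 CPM in Matrigel-only, Vehicle and Palo. *Ccnd1*, a cyclin of the G1 phase, was 54.5, 25.5 and 60.8 CPM. *Mef2c*, a transcription factor of hypertrophy, was 63.3, 152.0 and 65.4 CPM. The survival gene *Bcl2* was 14.4, 4.83 and 16.1 CPM, and *Fos*, an early response gene, was 158.5, 69.1 and 154.4 CPM. *Gnas*, which couples the receptor to cyclic AMP, was 1503, 1580 and 1670 CPM, and the kinase *Sik3* and the deacetylase *Hdac4* were within 2-fold in all of these comparisons.

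*Ihh* is also a marker of prehypertrophic and hypertrophic chondrocytes, so the rest of that list was examined beside it. Of 14 genes, 11 were counted and 10 were past 2-fold higher in Vehicle than in Matrigel-only, with a median log2 ratio of 2.33. Over all genes counted 5.06% were past 2-fold higher. *Sp7*, the osterix transcription factor, was 102.1 CPM in Vehicle against 1.30 and 1.58 CPM. *Panx3*, a channel protein of prehypertrophic cartilage, was 29.6 CPM against 0 UMIs in Matrigel-only and 1 UMI in Palo. *Col10a1*, the collagen that defines the hypertrophic cell, had 5 UMIs in 3 Vehicle cells and none elsewhere. The matrix gene *Ibsp* was 764.7 CPM in Vehicle with 0 UMIs in the other libraries, and *Spp1*, or osteopontin, was 92.7, 427.5 and 76.9 CPM. *Runx2*, a transcription factor of bone and hypertrophic cartilage, was 31.8, 82.6 and 49.6 CPM. Its relative *Runx3* was 1.75, 7.54 and 0.884 CPM. The phosphatase *Alpl* was 0.549, 91.4 and 0.126 CPM and the collagenase *Mmp13* was 0.150, 25.5 and 1.20 CPM. *Mef2c* and *Pth1r* belong to this list too, and *Vegfa*, the angiogenic factor, was 151.1, 292.1 and 72.8 CPM. *Ihh* and *Col10a1* were thus both near 0 in a library where most of the list was high. *Phospho1*, a phosphatase gene of the list, also had a mean under 1 CPM and was not counted. The list was not high in cells with *Acan* alone. In Vehicle cells without an *Acan* UMI, 9 of 10 genes counted were past 2-fold higher than in Matrigel-only. Their median log2 ratio was 1.81, against -0.06 over all genes. Of 12694 genes with a mean of at least 1 CPM over the libraries, 459 were past 2-fold higher there. Macrophage-like cells showed a rise too, with 5 of 8 genes of the list past 2-fold higher in Vehicle. The median log2 ratio was 1.39 there, against -0.01 over all genes, and the sums were 438.1 CPM in Vehicle and 335.2 CPM in Matrigel-only. The share of all genes past 2-fold was not counted in these cells. Other lists rose in them too, with 9 of 9 chondrocyte, 6 of 8 granulocyte and 6 of 8 T and NK cell genes past 2-fold higher. Of 12 macrophage and 23 cilium genes counted, 0 were. The source of these rises was not tested. Within Vehicle, 5 of 11 were past 2-fold higher with *Acan* than without, beside 2.84% of all genes.

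Markers of other cells also differed between the stromal cells of the libraries. Macrophage genes summed to 1160 CPM in Matrigel-only, 406.5 CPM in Vehicle and 966.1 CPM in Palo. Of the 12, 10 were past 2-fold lower in Vehicle than in Matrigel-only, beside 9.98% of all genes counted. T and NK cell genes summed to 683.5, 143.9 and 599.7 CPM and endothelial genes to 65.4, 18.7 and 39.9 CPM, both sums lowest in Vehicle. Of 12 T and NK cell genes 3 were counted in Vehicle over Matrigel-only, 1 past 2-fold higher and 1 lower. Their median log2 ratio was 0.89, so that sum does not stand for the list. Of 10 endothelial genes 4 were counted, 0 past 2-fold higher and 2 lower. Pericyte genes summed to 237.8, 923.2 and 363.2 CPM, a sum highest in Vehicle. Of 8 such genes 5 were counted in Vehicle over Matrigel-only, with 2 past 2-fold higher and 2 lower. *Pi16*, a marker of adventitial fibroblasts, was seen in 1153 Matrigel-only, 167 Vehicle and 368 Palo cells. The split by *Pi16* was added after the values were seen. Among cells without a *Pi16* UMI, *Ptch1* was 4.80 CPM in Matrigel-only and 17.2 CPM in Vehicle, *Gli2* was 6.57 and 0.853 CPM, and *Pthlh* was 7.84 and 1.09 CPM. Among cells with one, *Ptch1* was 4.47 CPM in Matrigel-only (3.25 to 6.00) and 8.08 CPM in Vehicle (4.93 to 12.5), *Gli2* was 3.76 and 5.65 CPM, and *Pthlh* was 3.45 and 2.83 CPM. Among cells with *Pi16* the level intervals of Matrigel-only and Vehicle overlapped for each of these genes, and the *Gli2* level was higher in Vehicle. Past 2-fold were 0 members, beside 529 genes higher and 643 lower of 12689. The log2 ratio of *Ptch1* was 0.85 (0.01 to 1.65, 20 against 44 UMIs), which leaves out 0. That of *Gli2* was 0.59 (-0.41 to 1.51, 14 against 37 UMIs), which includes no change. That of *Pthlh* was -0.29 (-1.71 to 0.91, 7 against 34 UMIs), an interval that holds both no change and a drop past 2-fold. In Palo cells with *Pi16* the levels were 3.37 CPM for *Ptch1*, 4.10 CPM for *Gli2* and 5.06 CPM for *Pthlh*. *Ptch1* alone was past 2-fold from Vehicle, beside 509 genes higher and 655 lower of 12689. It rests on 14 and 20 UMIs, with level intervals that overlapped (1.85 to 5.66 CPM in Palo and 4.93 to 12.5 CPM in Vehicle). The low *Gli2* and *Pthlh* of Vehicle were thus seen in cells without a *Pi16* UMI, and the difference between the cells with and without one was not tested. The part of these differences in the makeup of the libraries was not tested.

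Within Vehicle, 779 stromal cells had an *Acan* UMI and 594 had none, with median depths of 17327 and 16422 UMIs. These are cells of 1 library, so what follows describes them. Of the 8 members 6 had a mean of at least 1 CPM over both groups of cells. Past 2-fold higher with *Acan* were 0 of them, beside 2.84% of the 12551 genes counted, and past 2-fold lower was 1, *Gli2*, beside 4.42%. Since cells were split by *Acan*, a cartilage gene, the 17 chondrocyte genes higher in that group are no result.

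*Ptch1* was 19.0 CPM in cells with *Acan* (16.8 to 21.5) and 12.2 CPM in cells without (10.1 to 14.6). The log2 ratio was 0.64 (0.32 to 0.97), short of 2-fold. Cells without an *Acan* UMI still had more *Ptch1* than Matrigel-only cells, by 2.63-fold, a log2 ratio of 1.40 (0.99 to 1.80). They also had more than the 3.57 CPM of Vehicle macrophage-like cells. Cells without an *Acan* UMI were not free of cartilage transcripts. Of 12 chondrocyte genes counted in them, 11 were past 2-fold higher than in Matrigel-only, beside 459 of 12694 genes. The chondrocyte genes summed to 502.1 CPM in them against 99.0 CPM in Matrigel-only. The part of this in their *Ptch1* level was not tested. Across the split, *Gli2* went the other way from *Ptch1*. It had 4 UMIs in the cells with *Acan* (0.287 CPM, 0.0783 to 0.736) and 28 in those without (2.90 CPM, 1.93 to 4.19). *Smo* and *Gli3* hardly differed, at 60.1 and 56.7 CPM and at 37.3 and 39.2 CPM.

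*Gli1* was 0.503 CPM with *Acan* (7 UMIs) and 1.55 CPM without (15 UMIs), a log2 ratio of -1.63 (-3.16 to -0.24). With 1 CPM added it was within 2-fold, the Poisson intervals of the levels overlapped, and without the cell that held 4 of the 15 UMIs the second level was 1.14 CPM. Of the 18 Vehicle cells with *Gli1* 7 had a *Ptch1* UMI, or 38.9%, against 20.2% of the others. In Matrigel-only 0 of 15 did, against 4.20% of the others. Depth was not matched, and whether the genes go together was not tested. *Pthlh* was 0.934 CPM with *Acan* (13 UMIs) and 1.76 CPM without (17 UMIs), with a log2 interval from -2.08 to 0.22. *Hhip* had its 1 UMI in a cell without *Acan*.

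Of 27 Hedgehog pathway genes 21 were counted in this split, and 1 was past 2-fold higher with *Acan*, *Scube1*, and 3 lower, *Gli2* and *Gas1* among them. The median log2 ratio of these 21 genes was -0.10. Over all genes counted 2.84% were higher and 4.42% lower. Of the PTHrP genes 2 were higher, *Pth1r* and *Mef2c*, and 1 lower, *Ccnd1*, and 0 of the 24 cilium genes were past 2-fold.

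Cells with *Acan* were then divided into 3 equal groups by the share of their UMIs that it took, each of 259 or 260 cells. *Ptch1* was 15.4 CPM in the lower, 17.4 CPM in the middle and 24.4 CPM in the upper group. The lower and upper groups differed by a log2 ratio of 0.66 (0.23 to 1.11), and the middle group was not distinguishable from the lower. *Pth1r* was 157.8, 307.5 and 417.1 CPM, and 94.5 CPM in cells without *Acan*, with no overlap of intervals between steps. *Pthlh* had 10, 3 and 0 UMIs in these groups and *Gli2* had 3, 1 and 0. Of the 10 *Pthlh* UMIs 1 cell held 3, and the 95% interval of the log2 ratio of the upper to the lower group reached up to -1.09.

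*Gas1* ran against *Acan*, at 79.9 CPM without it and 57.5, 30.5 and 13.2 CPM in the lower, middle and upper groups. *Scube1* ran with it, at 1.97 CPM without it and 5.34, 22.1 and 45.0 CPM in those groups. Of the 26 Vehicle cells with *Pthlh* 18 had a *Pth1r* UMI, a share of 69.2% against 75.8% of the others. *Ccnd1* was 44.9 CPM in cells without *Acan* and 12.1 CPM in those with it.

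**Figure D3:**
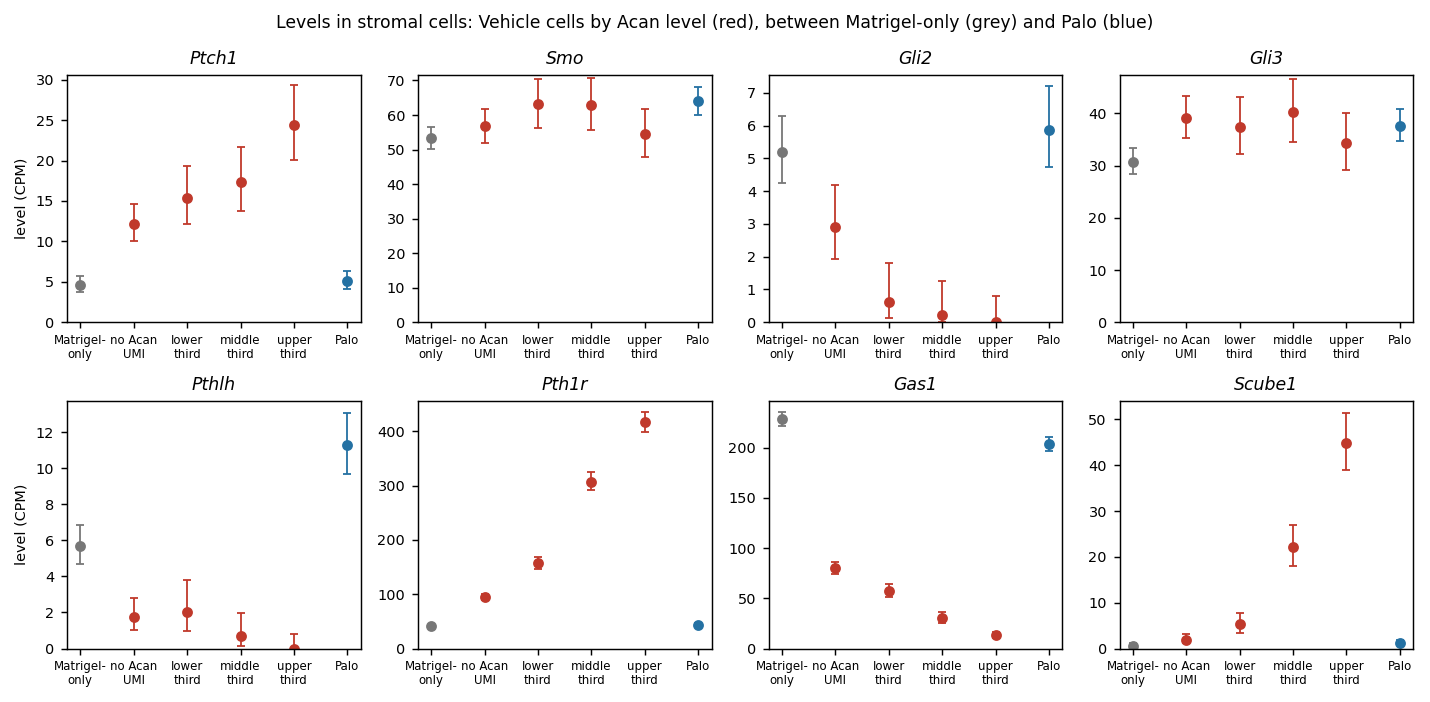
Level in CPM (vertical axes, each from 0) of 8 genes in stromal cells of Matrigel-only (grey), of Vehicle without an *Acan* UMI and in 3 equal groups by *Acan* share (red), and of Palo (blue), with exact Poisson 95% intervals. *Ptch1*, *Pth1r* and *Scube1* were highest in the upper group, at 24.4, 417.1 and 45.0 CPM, where *Gli2* and *Pthlh* had 0 UMIs.

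Genes most like a member were sought in Vehicle for the 3 members with at least 30 positive cells, as the largest log2 ratio with 5 CPM added between cells with and without a UMI of the member, among genes of at least 50 CPM. For *Ptch1* (280 cells) these were *Hbb-bs*, *Hbb-bt* and *Hba-a1*, then *3110079O15Rik* (*Snorc*, a cartilage proteoglycan) at 1.34 and *Cnmd* (chondromodulin) at 1.32. The globin genes took 88.5% to 97.0% of their UMIs from 1 cell. Cells with *Ptch1* had *Acan* in 68.6%, against 53.7% of cells without it, and their median depth was 19100 against 16420 UMIs.

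For *Gli3* (603 cells) the 5 genes were *Top2a* at 0.87, *Prc1*, *Ube2c*, *Cenpf* and *Cdk1*, all genes of dividing cells. Cells with *Gli3* were deeper too, at 18975 against 15338 UMIs, and the part of depth in these ratios was not tested. For *Smo* (797 cells) they were *Hbb-bs*, *Hba-a1*, *Ccl2*, *H2-Aa* and *Cd74*, where the largest ratio outside the globins was 0.75.

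The cells with *Pthlh* were compared with the rest in the same way in Matrigel-only and Palo, a choice made after seeing the values. In Matrigel-only (94 cells) the leading genes were *Thbs4* at 1.85, *Aqp1* at 1.84, *Dkk2*, *Crabp1* and *F2rl1*. In Palo (111 cells) they were *Cpn1* at 2.77, *Rab27b*, *Stmn4*, *Aqp1* at 1.85 and *Tnfaip6*. *Aqp1*, a water channel, was in both lists and was then used to split the stromal cells of each library. Since *Aqp1* was picked for its excess in cells with *Pthlh*, the *Pthlh* levels of this split in Matrigel-only and Palo restate that choice and are given as a description only.

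In Palo, *Pthlh* was 23.6 CPM in the 323 cells with *Aqp1* (19.7 to 28.1) and 5.05 CPM in the 861 without (3.78 to 6.60). In Matrigel-only it was 11.6 CPM (8.74 to 15.1) and 3.85 CPM (2.93 to 4.97). In Vehicle it was 2.06 CPM (1.06 to 3.59) and 1.01 CPM (0.601 to 1.60), where the intervals overlapped. Cells with *Aqp1* were deeper in each library, by their medians of 13911, 21067 and 16136 UMIs against 8478, 16296 and 11974 UMIs.

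*Pth1r* was distributed the other way. It was 9.94 CPM in Palo cells with *Aqp1* and 60.2 CPM in those without, and 7.81 and 51.5 CPM in Matrigel-only. In Vehicle it was 205.0 and 212.8 CPM, so the split did not separate its level there. Of the 111 Palo cells with *Pthlh* 19.8% had a *Pth1r* UMI, against 36.8% of the others, and in Matrigel-only 17.0% against 28.0%. *Gli2* was also lower in cells with *Aqp1*, at 1.27 against 6.40 CPM in Matrigel-only and 2.63 against 7.52 CPM in Palo. *Ptch1* was not separated, at 4.88 CPM with *Aqp1* (3.19 to 7.15) and 5.24 CPM without (3.95 to 6.82) in Palo.

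**Figure D4:**
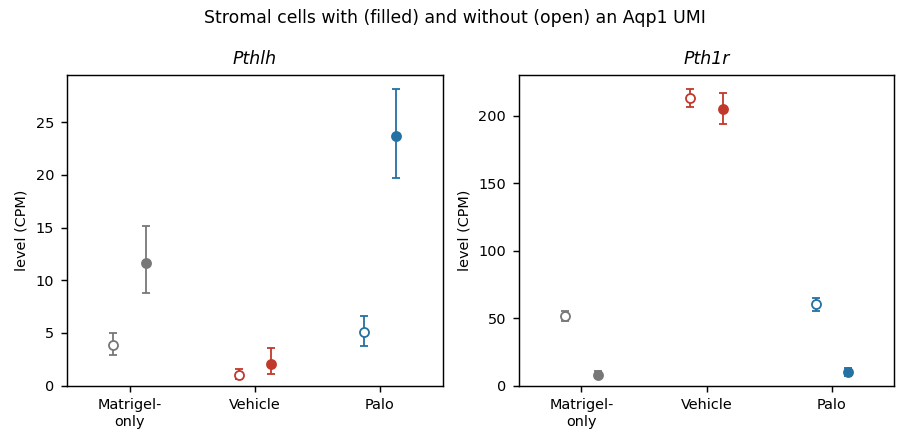
Level in CPM (vertical axes, each from 0) of *Pthlh* (left) and *Pth1r* (right) in stromal cells with (filled) and without (open) an *Aqp1* UMI in each library, with exact Poisson 95% intervals. In Palo, *Pthlh* was 23.6 CPM with *Aqp1* and 5.05 CPM without, while *Pth1r* was 9.94 and 60.2 CPM. The *Pthlh* difference follows from how *Aqp1* was chosen.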

How the data were processed

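Per the labels, the mice were implanted and dosed by group, the masses were digested with dispase, and the Chromium libraries, 1 for each of 3 conditions, were sequenced. Alignment was to mm10 in Cell Ranger 3.0.2, and the values the authors deposited are raw UMI counts. The study's legends describe several masses in a group, and which mouse a cell came from was not used here. UMIs measure captured molecules and were not divided by gene length, so levels were compared between libraries and not ranked between genes. Whether strand was used in counting is not given in the sources used here.

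Following the study, cells were kept at 200 to 6000 genes and at most 5% mitochondrial UMIs. UMIs were summed per library and class of cells. Intervals were exact Poisson for levels, Clopper-Pearson for shares and conditional binomial for ratios, at 95%. Shares were thinned to 3100 UMIs by the hypergeometric formula, which left 207, 70 and 54 Matrigel-only, Vehicle and Palo stromal cells out. Of the macrophage-like cells, 2953 of 6182, 1857 of 3329 and 4330 of 5796 were kept. Their thinned shares therefore describe the deeper of those cells. Doublets were kept, and Scrublet's highest scores were left out as an alternative. The ratio and thinning functions were tested on simulated data. The members and the lists were chosen with earlier results of these data known. Named were the members, listed ligands, receptors and genes past 2-fold, and the 5 genes most like a member. Scrublet ran through scanpy 1.11.5, and TMM factors came from edgeR 4.0.16 in R 4.3.3. Sums were made in pandas 2.3.3 and numpy 2.4.6 and intervals in scipy 1.17.1, under Python 3.11.15, with plots from matplotlib 3.10.9. Gene positions are those of GENCODE vM21 and promoter sequences those of RefSeq on GRCm38.p6. The authors' clusters, histology and protein data were not analysed here. Of the listed genes, 1 is counted in its list but not reported here.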

Additional observations from a re-analysis of the deposited data

Results flagged for a closer look

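*Ptch1* and *Smo* were higher in Vehicle than in Matrigel-only among stromal cells and lower among macrophage-like cells, with counting intervals that left out 0 in both classes. The log2 ratio of *Ptch1* was 1.81 in stromal and -0.63 (-1.14 to -0.14) in macrophage-like cells, a difference of 2.44. That of *Smo* was 0.14 (0.02 to 0.26) in stromal and -0.70 (-1.22 to -0.20) in macrophage-like cells, a difference of 0.843. The macrophage-like *Smo* levels were low, at 3.43 CPM (47 UMIs) in Vehicle and 5.58 CPM (117 UMIs) in Matrigel-only. In stromal cells they were 58.7 and 53.3 CPM, which hardly differed. Each class is 1 library per condition, and the difference between the classes was not tested.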

How the results depend on the processing

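*Gli2* changed sign with the cells that had a *Pi16* UMI, a setting added after seeing the data, to 0.48 in Vehicle over Matrigel-only and -0.38 in Palo over Vehicle (log2, 1 CPM added). These values rest on 37, 14 and 17 *Gli2* UMIs in Matrigel-only, Vehicle and Palo. The log2 interval of Vehicle over Matrigel-only, -0.41 to 1.51, includes no change. Cells with *Pi16* left 0 members past 2-fold in Vehicle over Matrigel-only, with 1172 genes. They left 1 member in Palo over Vehicle, *Ptch1*, beside 509 genes higher and 655 lower of 12689. No other member past 2-fold changed sign in the settings run. Adding 5 CPM in place of 1 left 1 member past 2-fold in Vehicle over Matrigel-only, *Ptch1*, and 0 in the *Acan* split, and lowered the counts over all genes to 1153 in Vehicle over Matrigel-only, 861 in Palo over Vehicle, 128 in Palo over Matrigel-only and 451 in the *Acan* split, from 1917, 1536, 367 and 912. A filter at 5 CPM left 237 genes in Palo over Matrigel-only, 605 in the *Acan* split and 0 members there. In the *Acan* split 2 members were past 2-fold lower with the mean of each cell's CPM, beside 809 of 12648 genes lower. So were 2 with 0.5 CPM added, beside 630 of 12551, and 2 with the split after thinning, beside 640 of 12540. They were not the same genes in each setting. *Pthlh* was among them after thinning, at -1.27, and was within 2-fold with 0.5 CPM added. Requiring *Acan* and *Col2a1* together against neither gave 1390 genes. The members whose stromal share in Vehicle lay above the macrophage-like share numbered 3 with thinning and 6 without it. No share over all genes was counted for this. Without thinning the Vehicle stromal cells were far deeper, at a median of 17114 against 3456 UMIs, so the 6 are not read as a result about these genes. The log2 ratio with 1 CPM added of *Gli2* in Vehicle over Matrigel-only was -1.39, and -0.75 with the mean of each cell's CPM, -0.67 with the Vehicle cells that had no *Acan* UMI and -2.03 with cells that had no *Pi16* UMI, the last 2 added after seeing the data. In Palo over Vehicle it was 1.54, and fell short of 2-fold at 0.96 with the mean of each cell's CPM, 0.77 with 5 CPM added and 0.82 with the Vehicle cells that had no *Acan* UMI, and a filter at 5 CPM left *Gli2* out. That of *Pthlh* in Palo over Vehicle was 2.44, and ranged from 0.66 to 2.80. The cause of these shifts was not tested.

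No paired analysis was possible because each condition is 1 library, and for the same reason leaving a library out gives no value. *Ihh*, *Gli1* and *Hhip* had at most 22 UMIs in a library, and their counting intervals are wide.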

Other observations

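The stromal cells with a *Pth1r* UMI were compared with those without one in each library, a comparison chosen after the values were seen. In Vehicle (1039 cells) the leading genes were those of cartilage and mineralizing matrix, *Col11a2* at a log2 ratio of 3.14 with 5 CPM added, *3110079O15Rik* (*Snorc*) at 3.10 and *Ibsp* (bone sialoprotein) at 2.87, followed by *Slpi* and *Hapln1* (cartilage link protein). In Matrigel-only (573 cells) they were *Fabp4* at 2.39, *Cyp26b1* at 2.23, *Saa3*, *Ltbp2* and *Cxcl14*, where 1 cell gave 35.8% of the *Fabp4* and 34.2% of the *Saa3* UMIs. *Cyp26b1*, an enzyme that degrades retinoic acid, was seen in 18.7% of those cells and in 5.75% of the rest. In Palo (417 cells) *Saa3* led at 3.01, with 42.1% of its UMIs from 1 cell, before *Rgs4* at 1.61, *Sfrp1* at 1.57, *Pappa* and *Cyp1b1*. *Sfrp1*, a secreted Wnt antagonist, was seen in 62.1% of those cells and in 28.6% of the rest. Cells with *Pth1r* were deeper than the rest, by medians of 17965 against 13726 UMIs in Vehicle, 9614 against 8714 in Matrigel-only and 13189 against 12780 in Palo.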
